A study of Mus musculus with 8 samples.

Results

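The transcripts of DARPP-32, protein kinase A and their closest partners were followed in ribosome-bound RNA from the nucleus accumbens and the dorsal striatum of old mice. The set was defined by gene symbol and holds 10 genes out of the 32531 gene rows of each library, namely Ppp1r1b, Arpp19, Arpp21, Prkaca, Prkacb, Prkar1a, Prkar1b, Prkar2b, Ppp1ca and Ptpn5. All 10 were present in every library and all 10 passed the filter on low counts, which left 12467 genes. The libraries were 4 from accumbens and 4 from dorsal striatum. All animals were untreated, were older than 20 months and carried the Drd1-EGFP/Rpl10a (CP73) transgene, which puts a green fluorescent tag on ribosomes of cells that use the dopamine D1 receptor promoter. Polysomes were captured with antibodies to the tag, and every library is such a capture, so levels in the surrounding tissue were not measured. The labels do not say whether a replicate is 1 animal or a pool, and the p-values therefore reflect only how these libraries vary, which may be technical.

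In D1 neurons dopamine raises cyclic AMP, which releases the catalytic subunits of protein kinase A from their regulatory subunits. The freed kinase phosphorylates DARPP-32, which then blocks protein phosphatase 1, so that phosphate stays longer on the kinase's other targets. ARPP-19, ARPP-21 and the tyrosine phosphatase STEP are further substrates of the kinase that are abundant in the striatum.

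Sites that fit the kinase's consensus are shown here because they bear on the roles in which some of the genes are described below. In the longest annotated product, 5 of the 10 genes hold the kinase's consensus of 2 arginines, any residue, and then a serine or threonine. Of these, 4 stretches of 30 coding bases are given from the GENCODE M21 transcripts, with the codon of the phosphorylated residue in capitals. It is threonine 34 in DARPP-32, serine 55 in ARPP-21, serine 221 in STEP, where phosphorylation lowers its grip on substrates, and serine 112 in the type II beta regulatory subunit. The matches at serine 160 and threonine 422 of STEP and at threonine 33 of the longest ARPP-19 product are not shown. Whether the kinase uses them was not tested. Only this consensus in the longest products was searched for, so sites of other sequence, also in ARPP-19, were not sought. Arpp19 counts among the 5 only through threonine 33, whose codon is followed directly by an ATG codon. Whether its shorter annotated products hold that residue was not examined.
Ppp1r1b: cggcgccggagaccaACCcctgccatgctt
Arpp21: caagagaggagaaaaTCCaagtcaggagca
Ptpn5: caggagaggagaggaTCCaatgtctccttg
Prkar2b: ttcacaaggcgtgccTCGgtctgtgcagaa

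Gene counts per library ran from 10831937 to 12639641 in accumbens and from 7466970 to 10363145 in dorsal striatum, so every accumbens library was the deeper. Reads assigned to no gene made up 35.5% to 40.6% of accumbens libraries and 27.1% to 33.8% of dorsal ones, a gap between the regions whose part in the results was not tested. The 10 genes had between 437 and 35702 counts in a library. Accumbens 2 and dorsal striatum 3 resembled the rest least, with median rank correlations of 0.927 and 0.935. Drd1 stood at 435 ± 86.5 CPM in accumbens and 605 ± 60.9 CPM in dorsal striatum (SD, n = 4 each; CPM are counts scaled to library size by TMM). Transcripts used as markers of other cells also moved with region, and which cells they came from was not tested. All 7 tested markers of indirect-pathway neurons had positive log2 fold changes (accumbens over dorsal striatum), 4 of them called, and their summed level was 709 to 989 CPM in accumbens libraries and 235 to 371 CPM in dorsal libraries. Their part in the results was not tested. A decrease could come from fewer cells of a type or from less RNA per cell, and these cannot be told apart here.

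Of the 10 genes, 1 was called different between the regions, that is, had an adjusted p below 0.05 in the quasi-likelihood test of edgeR, where 3.72% of all tested genes did. That gene was Arpp19, lower in accumbens, a direction in which 2.12% of all genes were called, and 0 of the 10 were called higher, against 1.60% of all genes. The 4 accumbens and 4 dorsal libraries did not overlap for 3 of the 10 genes, Arpp19, Ppp1r1b and Ptpn5, each lower in accumbens, against 9.69% of all genes in either direction and 5.18% in this one. The median absolute log2 fold change was 0.14 over the 10 genes and 0.29 over all tested genes, and the median signed value was -0.12 against 0.02.

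**Figure D1:**
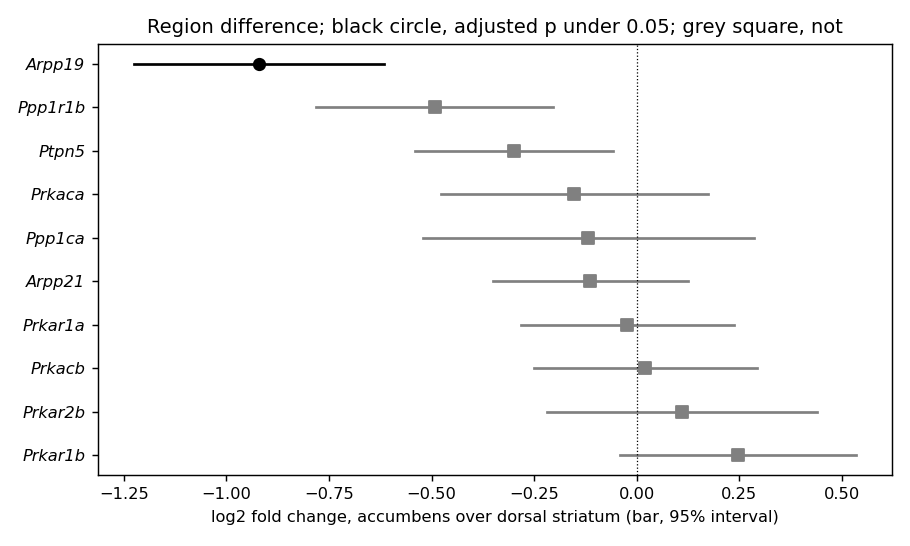
Log2 fold change of each gene, accumbens over dorsal striatum, on the horizontal axis, with its 95% interval from edgeR's quasi-likelihood fit as a bar (4 libraries per region); the intervals are not adjusted for the number of genes. Arpp19 lies lowest at -0.92 with an adjusted p under 0.05 (black circle), and the other 9 genes (grey squares) lie between -0.49 and 0.25.

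Arpp19 encodes a small protein of the endosulfine family that inhibits protein phosphatase 2A once Greatwall kinase has phosphorylated it (ENSMUSG00000007656.13, chromosome 9, 75037614 to 75060313 in mm10, plus strand). It had 439.95, 404, 366 and 437 CPM in accumbens libraries 1 to 4, against 737, 596, 779 and 1006 CPM in dorsal libraries 1 to 4. The highest accumbens library thus lay below the lowest dorsal one. The means were 412 ± 34.4 CPM in accumbens and 779 ± 170.3 CPM in dorsal striatum (SD, n = 4 each), a log2 fold change of -0.92 ± 0.14 SE (edgeR adjusted p = 8.86e-04), or 0.529-fold with a 95% interval from 0.428 to 0.653. The call held with each single library left out, at log2 fold changes from -1.03 to -0.77 and adjusted p up to 0.00599. No exon of Arpp19 overlapped another annotated gene, and none of its 50-base words occurred in a transcript of another gene.

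Its closest relative, Ensa, encodes endosulfine, which carries the same Greatwall site. The serine codon that Greatwall targets is in capitals in these 30 coding bases, serine 95 of the longest ARPP-19 product and serine 67 of the longest endosulfine product, and 26 of the 30 bases are identical.
Arpp19: aagtattttgatTCTggggactacaacatg
Ensa: aagtactttgacTCAggagactacaacatg
Ensa was not called, with 421, 361, 438 and 439 CPM in accumbens libraries 1 to 4, against 530.4, 352, 455 and 497 CPM in dorsal libraries 1 to 4. Its regions overlapped (log2 fold change -0.14 ± 0.14 SE, edgeR adjusted p = 0.704). The ratio of Arpp19 to Ensa, each as CPM per kilobase of exon, was 1.13, 1.21, 0.901 and 1.07 in accumbens libraries 1 to 4, against 1.498, 1.83, 1.84 and 2.19 in dorsal libraries 1 to 4. This ratio does not depend on library scaling, and its values did not overlap between the regions. The same held for the ratio of Arpp19 to Arpp21, which was 0.526 ± 0.0354 in accumbens and 0.914 ± 0.0852 in dorsal striatum (SD, n = 4 each), or 0.197 and 0.342 in the same order with the longest transcript as the length.

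The mean centred log2 CPM of the 14 tested astrocyte, oligodendrocyte and microglia markers, out of 25 listed, was 0.35 ± 0.31 in accumbens and -0.35 ± 0.62 in dorsal striatum (SD, n = 4 each). It ran from 0.00066 to 0.76 over accumbens libraries and from -1.04 to 0.46 over dorsal ones. Among dorsal libraries, the order of Arpp19 from high to low (4, 3, 1, 2) was the order of this marker level from low to high. Among the accumbens libraries it was not, where library 1 had both the highest marker level and the highest Arpp19. With the marker level as a covariate, the log2 fold change of Arpp19 was -0.66 and its call was lost (edgeR adjusted p = 0.0748), in a fit that called 150 of 12467 genes. Microglia markers summed to 4.80 to 15.3 CPM in accumbens libraries and 0.985 to 4.24 CPM in dorsal ones, with C1qa at 0 in all. The summed astrocyte markers were 258 to 703 CPM in accumbens and 199 to 375 CPM in dorsal striatum, and the oligodendrocyte markers 129 to 331 and 123 to 198 CPM in the same order.

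**Figure D2:**
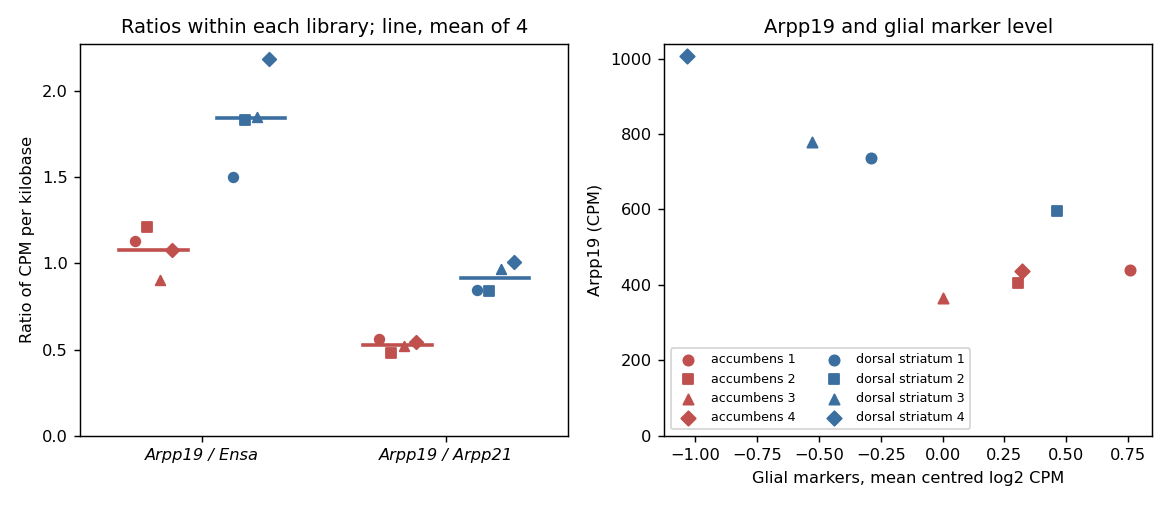
Left, ratios of Arpp19 to Ensa and to Arpp21 in CPM per kilobase in each of the 4 accumbens (red, left of each pair) and 4 dorsal (blue) libraries, with the mean as a line; neither ratio overlaps between regions. Right, Arpp19 CPM against the mean centred log2 CPM of glial markers; dorsal libraries run from 596 to 1006 CPM and accumbens libraries from 366 to 439.95 CPM.

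The 300 bases around the annotated start of Arpp19 are shown because it was the called gene, and a window of Prkar1a because it was the only one of the 8 genes with a RefSeq promoter window to hold the full cyclic AMP response element (TGACGTCA on either strand). That element is bound by CREB, a transcription factor that the kinase activates. Each window runs from 250 bases before to 50 bases after a RefSeq start on GRCm38.p6, and 588 of 32851 such windows, or 1.79%, hold the element. The Arpp19 window (chr9:75037364-75037663, plus strand) holds neither the element nor its core TGACG, which 20.8% of windows hold on either strand. In Prkar1a, 2 of the 6 windows hold the element, and the first of these (chr11:109650612-109650911, plus strand) has it in capitals. These 2 windows overlap and hold the same single site. Their RefSeq starts lie 1457 and 1544 bases from the annotated gene start, and the window nearest that start does not hold the element. The 1.79% is a share per window, whereas Prkar1a has 6 windows. In the windows that start nearest the annotated gene start, the core occurs in Prkaca, Prkacb, Prkar1a and Prkar1b. It occurs in none of Arpp19, Arpp21, Prkar2b and Ptpn5. The RefSeq start of that Arpp21 window lies 2216 bases from the annotated gene start, and 3 of the 9 Arpp21 windows hold the core.
Arpp19: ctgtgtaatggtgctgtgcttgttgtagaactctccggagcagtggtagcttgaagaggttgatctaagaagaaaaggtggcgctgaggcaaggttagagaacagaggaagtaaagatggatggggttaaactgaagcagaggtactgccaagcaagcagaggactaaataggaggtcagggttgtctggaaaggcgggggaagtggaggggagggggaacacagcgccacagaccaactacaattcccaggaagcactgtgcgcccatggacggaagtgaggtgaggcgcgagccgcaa
Prkar1a: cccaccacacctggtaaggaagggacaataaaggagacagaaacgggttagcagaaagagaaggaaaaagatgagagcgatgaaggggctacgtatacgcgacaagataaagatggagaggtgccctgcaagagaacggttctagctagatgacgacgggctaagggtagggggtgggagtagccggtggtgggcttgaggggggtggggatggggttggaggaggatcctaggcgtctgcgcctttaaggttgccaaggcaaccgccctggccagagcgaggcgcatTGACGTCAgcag
Prkar1a overlapped between the regions and was not called (edgeR adjusted p = 0.966).

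Ppp1r1b encodes DARPP-32, the kinase-regulated inhibitor of protein phosphatase 1 (ENSMUSG00000061718.12, chromosome 11, 98348404 to 98357796 in mm10, plus strand). It had 1267, 1114, 1319 and 1067 CPM in accumbens libraries 1 to 4, against 2197, 1635, 1486 and 1388 CPM in dorsal libraries 1 to 4. No accumbens library reached a dorsal one, and dorsal library 1 was the highest. Of its 2928 exon bases, 460 overlap a gene on the opposite strand, 1700003D09Rik, and Arpp21, Prkar1b and Ppp1ca also have exons that overlap another gene; whether counting used strand is not given in the sources used here. Means were 1192 ± 120.6 CPM in accumbens and 1676 ± 362 CPM in dorsal striatum (SD, n = 4 each). The log2 fold change of -0.49 ± 0.14 SE was not called (edgeR adjusted p = 0.0563). It passed the threshold with DESeq2 (adjusted p = 0.0273), with limma-voom (0.0145), without a filter on low counts (0.0188) and without dorsal library 4 (0.0322). Without dorsal library 1 it was -0.34 (adjusted p = 0.199), and over all 17 alternatives the adjusted p ran from 0.0145 to 0.199. Drd1, the gene of the receptor that drives this pathway, had a log2 fold change of -0.47 ± 0.14 SE (edgeR adjusted p = 0.0750). The ratio of Ppp1r1b to Drd1 per kilobase was 3.50 ± 0.823 in accumbens and 3.45 ± 0.739 in dorsal striatum (SD, n = 4 each), and its values overlapped.

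Arpp21 encodes ARPP-21, also called regulator of calmodulin signalling, which binds calmodulin when the kinase has phosphorylated it (ENSMUSG00000032503.18, chromosome 9, 112065091 to 112235938 in mm10, minus strand). By counts per gene, which do not separate its 31 annotated transcripts, it was the most abundant of the set. Its rank was 17 of 12467 genes by mean CPM. It had 2762, 2964, 2479 and 2815 CPM in accumbens libraries 1 to 4, against 3074, 2494, 2831 and 3518 CPM in dorsal libraries 1 to 4. The regions overlapped, with a log2 fold change of -0.11 ± 0.11 SE (edgeR adjusted p = 0.726; 95% interval of the fold from 0.785 to 1.09).

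Ptpn5 encodes STEP, the striatal-enriched phosphatase that removes phosphate from the kinase Fyn and the NMDA receptor subunit GluN2B (ENSMUSG00000030854.17, chromosome 7, 47077795 to 47133684 in mm10, minus strand). It had 453, 433, 532 and 444 CPM in accumbens libraries 1 to 4, against 603, 584, 547 and 557 CPM in dorsal libraries 1 to 4. The regions did not overlap, but the gap between accumbens 3 and dorsal striatum 3 was small. The log2 fold change of -0.30 ± 0.11 SE was not called (edgeR adjusted p = 0.196), nor under any of the 17 alternatives, where it ran from -0.37 to -0.27. Ppp1ca, one of the genes for the catalytic subunit of protein phosphatase 1, was the least abundant of the set (chromosome 19, 4192065 to 4195420 in mm10, plus strand). It had 50.9, 57.3, 81.3 and 70.4 CPM in accumbens libraries 1 to 4, against 83.2, 71.3, 60.5 and 67.1 CPM in dorsal libraries 1 to 4, and the regions overlapped in part (log2 fold change -0.12 ± 0.19 SE, edgeR adjusted p = 0.851). Of the summed CPM per kilobase of Ppp1ca, Ppp1cb and Ppp1cc, it held 39.99% ± 6.31 in accumbens and 36.5% ± 3.63 in dorsal striatum (SD, n = 4 each).

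**Figure D3:**
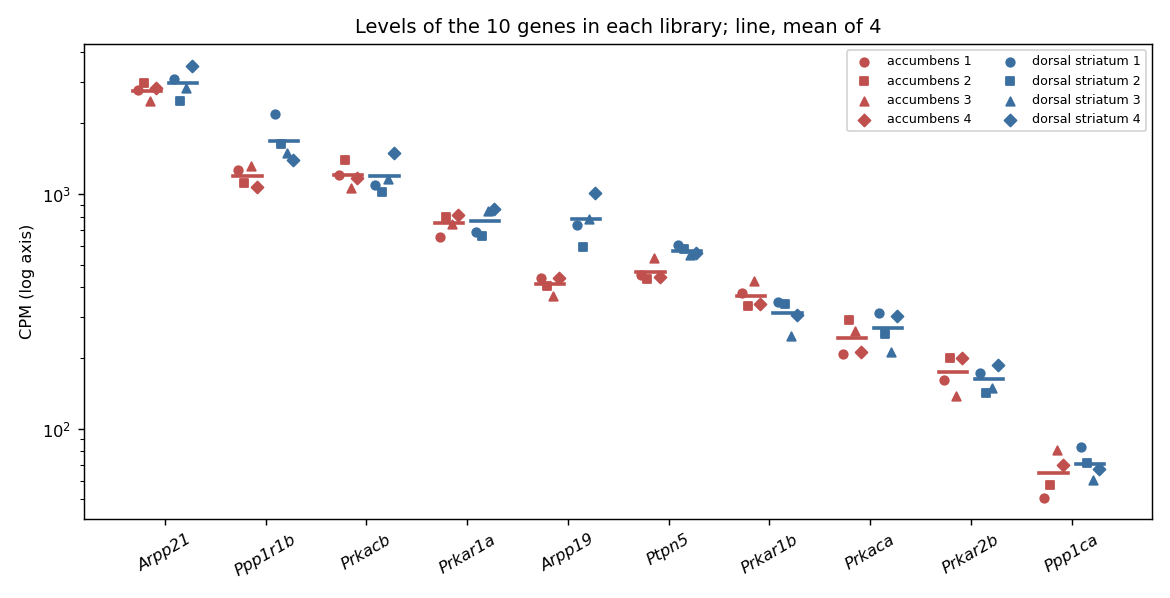
CPM on a log axis for each of the 10 genes in the 4 accumbens (red, left) and 4 dorsal striatum (blue, right) libraries, one marker shape per replicate number, with the mean as a line. Arpp19, Ppp1r1b and Ptpn5 show no overlap between regions, and the other 7 genes overlap.

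None of the 5 kinase subunit genes in the set was called. Prkaca encodes the catalytic subunit C alpha (chromosome 8, 83972993 to 83996443 in mm10, plus strand) and had 207, 289.9, 261 and 212 CPM in accumbens libraries 1 to 4, against 311, 252, 212 and 303 CPM in dorsal libraries 1 to 4. Prkacb encodes C beta (chromosome 3, 146729574 to 146812990 in mm10, minus strand) and had 1207, 1389, 1063 and 1169.7 CPM in accumbens libraries 1 to 4, against 1091, 1019, 1161 and 1488 CPM in dorsal libraries 1 to 4. Both genes overlapped between regions. Log2 fold changes were -0.15 ± 0.15 SE for Prkaca (edgeR adjusted p = 0.731) and 0.02 ± 0.13 SE for Prkacb (0.973). The 95% intervals of the fold ran from 0.718 to 1.13 for Prkaca and from 0.840 to 1.23 for Prkacb, so differences inside these bounds are not excluded.

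Regulatory subunits hold the catalytic ones inactive, and those of type I carry at the contact a residue that cannot be phosphorylated, where type II carries a serine. Prkar1a encodes type I alpha (chromosome 11, 109649405 to 109669656 in mm10, plus strand) and had 658, 798, 744 and 814 CPM in accumbens libraries 1 to 4, against 691, 659, 846 and 865 CPM in dorsal libraries 1 to 4. Prkar1b, the neuronal type I beta (chromosome 5, 139017306 to 139150001 in mm10, minus strand), had 377, 334, 425 and 339.9 CPM in accumbens libraries 1 to 4, against 347, 341, 249 and 305 CPM in dorsal libraries 1 to 4. Prkar2b, the type II beta subunit that is prominent in striatal neurons (chromosome 12, 31958476 to 32061296 in mm10, minus strand), had 161, 201, 138 and 201 CPM in accumbens libraries 1 to 4, against 172, 142, 148 and 186 CPM in dorsal libraries 1 to 4. All of these overlapped between regions. Log2 fold changes were -0.02 ± 0.12 SE for Prkar1a (edgeR adjusted p = 0.966), 0.25 ± 0.14 SE for Prkar1b (0.431) and 0.11 ± 0.16 SE for Prkar2b (0.823). The 95% intervals of the fold were 0.822 to 1.18, 0.973 to 1.45 and 0.860 to 1.36 for these genes in turn.

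Within the set, the shares of the kinase transcripts held by each subunit gene overlapped between the regions. Prkar2a, a regulatory gene outside the set, was left out of the sums. It stood at 15.0 ± 2.62 CPM per kilobase in accumbens and 9.76 ± 1.40 in dorsal striatum (SD, n = 4 each), without overlap between libraries. Per kilobase, Prkacb made up 58.6% ± 3.89 of the catalytic pair in accumbens and 55.6% ± 4.90 in dorsal striatum (SD, n = 4 each). Of the 3 regulatory genes, Prkar1a took 54.5% ± 2.43 in accumbens and 58.3% ± 5.35 in dorsal striatum, Prkar1b 30.4% ± 4.23 and 27.1% ± 4.92, and Prkar2b 15.01% ± 2.30 and 14.6% ± 1.15, in the same order. The ratio of catalytic to regulatory transcripts was 0.737 ± 0.0780 in accumbens and 0.803 ± 0.0698 in dorsal striatum. Values of every one of these shares overlapped between the regions. They depend on the length assigned to each gene. With the longest transcript in place of all exons the Prkacb share was 72.3% in accumbens and 69.7% in dorsal striatum. The ratio of catalytic to regulatory transcripts was then 0.947 and 1.02 in the same order, so which group exceeds the other depends on the length.

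**Figure D4:**
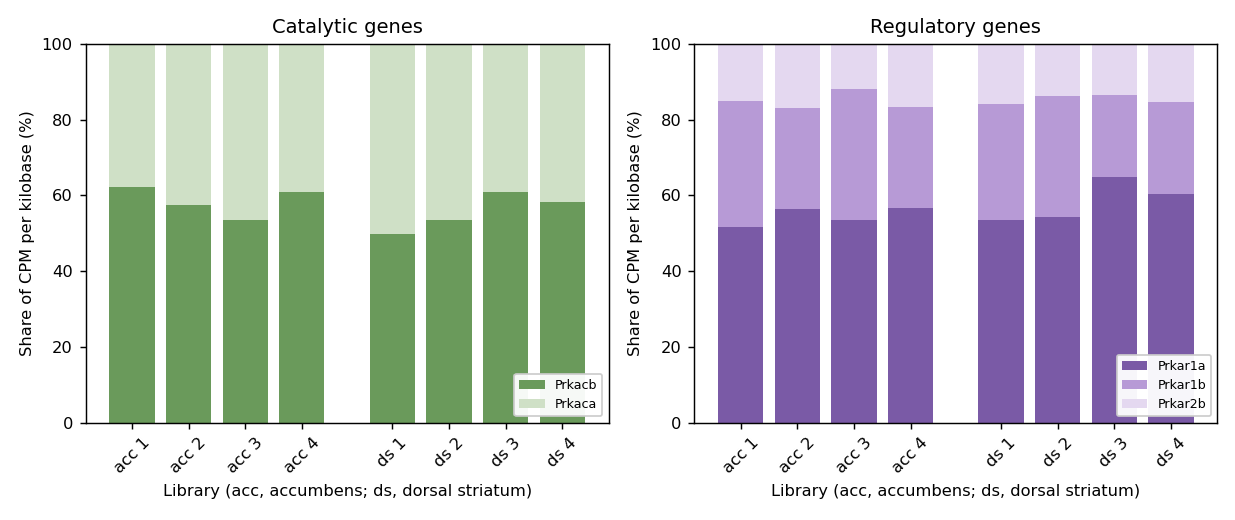
Share of CPM per kilobase of exon held by the 2 catalytic (left) and 3 regulatory (right) protein kinase A genes of the set in each library. Bars are stacked from 0 to 100%, with accumbens libraries left of dorsal ones. Prkar2a is not included. Prkacb holds 49.9% to 62.3% of the catalytic pair, and Prkar1a 51.6% to 64.9% of the regulatory genes.

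Compared per kilobase of exon, Ppp1r1b stood highest in both regions, at 407 ± 41.2 CPM per kilobase in accumbens and 573 ± 124 in dorsal striatum (SD, n = 4 each), with no overlap with the next gene. In accumbens it was followed by Prkar1a (174), Arpp21 (158), Prkacb (138), Prkaca (97.5), Prkar1b (96.8), Arpp19 (83.1), Ptpn5 (80.4), Prkar2b (47.97) and Ppp1ca (25.8). Of these neighbours, Prkar1a and Arpp21, Arpp21 and Prkacb, and each pair from Prkaca to Ptpn5 overlapped in range. In dorsal striatum the order was Prkar1a (177), Arpp21 (171), Arpp19 (157), Prkacb (136), Prkaca (108), Ptpn5 (98.9), Prkar1b (81.5), Prkar2b (44.4) and Ppp1ca (27.98), where each pair from Prkar1a to Ptpn5 overlapped. By mean, Arpp19 thus stood below Prkacb, Prkaca and Prkar1b in accumbens and above them in dorsal striatum. With the longest transcript as the length it stood below Prkacb in dorsal striatum as well, at 193 against 274. Arpp21 has 31 annotated transcripts over 17428 bases of exon. With its longest transcript of 5320 bases its level was 518 in accumbens and 560.01 in dorsal striatum. Ppp1r1b was still the highest by mean on that kind of length, at 596 in accumbens and 838 in dorsal striatum. Overlap between genes was not examined on it.

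Around these 10 genes, 83 others in 7 lists of the same pathways were examined, of which 77 were tested. Of these, 2 were called higher and 2 lower in accumbens, 5.19% against 3.72% of all tested genes, and their median log2 fold change was -0.0096. With the glial marker level as a covariate 0 of them were called. The anchoring proteins, which hold the kinase near its targets, had 1 gene called higher and 1 lower of 16 tested (median 0.06). Sphkap had 24.3, 18.1, 43.1 and 34.03 CPM in accumbens libraries 1 to 4, against 12.2, 13.6, 5.95 and 7.98 CPM in dorsal libraries 1 to 4 (log2 fold change 1.59 ± 0.34 SE, edgeR adjusted p = 0.0118). Its call was lost without accumbens 3 (edgeR adjusted p = 0.0579). Akap9, a scaffold of the Golgi and centrosome, had 526, 543, 536 and 552 CPM in accumbens libraries 1 to 4, against 803, 729, 877 and 595 CPM in dorsal libraries 1 to 4 (log2 fold change -0.48 ± 0.12 SE, edgeR adjusted p = 0.0392). Its call was kept without dorsal striatum 4, and was lost without any other single library (edgeR adjusted p up to 0.139). The most abundant anchoring genes missed the threshold, Akap5 at a log2 fold change of -0.29 ± 0.11 SE (edgeR adjusted p = 0.206) and Map2 at 0.31 ± 0.12 SE (0.229).

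Among kinases that phosphorylate DARPP-32 at sites other than that of protein kinase A, 1 of 8 tested genes was called, lower in accumbens (median log2 fold change -0.14). It was Cdk5r2, an activator of the kinase Cdk5, with 211, 267, 272 and 215 CPM in accumbens libraries 1 to 4, against 409, 341, 444 and 399 CPM in dorsal libraries 1 to 4. The regions did not overlap (log2 fold change -0.72 ± 0.14 SE, edgeR adjusted p = 0.00370), and the call held with each single library left out (adjusted p up to 0.0218). The other activator, Cdk5r1, was not called but did not overlap either, at 198 ± 8.93 CPM in accumbens and 246 ± 11.4 CPM in dorsal striatum (SD, n = 4 each; log2 fold change -0.31 ± 0.12 SE, edgeR adjusted p = 0.202).

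Of 9 STEP substrates and related phosphatases, 1 was called, Ptprr, a tyrosine phosphatase related to STEP that was higher in accumbens (median of the list -0.05). It had 32.03, 33.4, 40.8 and 27.5 CPM in accumbens libraries 1 to 4, against 11.8, 20.4, 16.05 and 8.38 CPM in dorsal libraries 1 to 4 (log2 fold change 1.24 ± 0.29 SE, edgeR adjusted p = 0.0214). The regions did not overlap, but the call was lost without accumbens 1, accumbens 3, dorsal striatum 1 or dorsal striatum 4 (edgeR adjusted p up to 0.0803). The abundant AMPA receptor gene Gria2 missed the threshold, at a log2 fold change of -0.21 ± 0.11 SE (edgeR adjusted p = 0.382). Mapk3 missed it as well (0.44 ± 0.14 SE, edgeR adjusted p = 0.106), though its regions did not overlap and DESeq2 called it. In this list 4 of 9 genes had an unadjusted edgeR p under 0.05, against 14.8% of all tested genes.

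The other 4 lists had no called gene in edgeR. For the remaining kinase subunits and inhibitors, 3 of 5 had an unadjusted p under 0.05, as did 14.8% of all tested genes (median log2 fold change 0.50). Prkar2a, the type II alpha regulatory subunit, had 115, 104, 82.2 and 81.3 CPM in accumbens libraries 1 to 4, against 56.9, 74.04, 63.9 and 54.0 CPM in dorsal libraries 1 to 4. Its regions did not overlap, yet it missed the threshold (log2 fold change 0.62 ± 0.18 SE, edgeR adjusted p = 0.0673), though DESeq2 called it (0.0175), as did edgeR with low counts kept in (0.0479). The kinase inhibitor gene Pkia stood at 279 ± 43.01 CPM in accumbens and 297 ± 65.1 CPM in dorsal striatum (SD, n = 4 each; edgeR adjusted p = 0.871). For other subunits of protein phosphatase 1, 5 of 19 had an unadjusted p under 0.05 and the median was -0.07. The most abundant were Ppp1r9a, the actin-binding neurabin (-0.39 ± 0.12 SE, edgeR adjusted p = 0.0844, and 0.0381 without dorsal striatum 2), and Phactr1 (0.01 ± 0.10 SE, 0.984). For endosulfine, Greatwall and phosphatase 2A, 1 of 11 had an unadjusted p under 0.05 and the median was -0.14, with Ppp2r2c at -0.16 ± 0.14 SE (edgeR adjusted p = 0.684). Mastl, the gene of Greatwall, did not pass the filter on low counts, with a mean of 0.583 CPM. For cyclic AMP response factors, 1 of 9 had an unadjusted p under 0.05 and the median was 0.12, with the coactivator genes Crebbp at -0.02 ± 0.12 SE (edgeR adjusted p = 0.973) and Crtc1 at 0.12 ± 0.12 SE (0.748). DESeq2 called 1 gene in the first of these 4 lists and 0 in the other 3, and limma-voom called 0 in all 4.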

How the data were processed

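The deposited tables hold raw counts of reads per gene symbol for each library. Per the submitters' processing notes, the tools were STAR 2.0.0e and HTSeq and the build mm10. The annotation, strand setting and filters are not given in the sources used here, so reads of overlapping genes cannot be told apart. Rows for reads without a gene, 35.5% to 40.6% of counted reads in accumbens and 27.1% to 33.8% in dorsal striatum, were left out.

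Regions were compared over all genes with edgeR 4.0.16 in R 4.3.3 (TMM, filterByExpr with a minimum count of 10, quasi-likelihood F test, with no covariate). The threshold was a Benjamini-Hochberg adjusted p of 0.05 over the 12467 genes tested. A count of 3 equals 0.237 to 0.415 CPM. Log2 CPM use a prior count of 2. Exon lengths are GENCODE M21 unions.

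Named genes are all 10 members and, per pathway list, up to 4 called genes and the 2 of highest mean CPM, the 5 genes nearest Ppp1r1b in pattern, Drd1 and Drd2. Some genes chosen by these rules are not reported here. Any others were chosen after their values were seen. Members and lists were chosen with earlier results of these data known. Alternatives were RLE and upper-quartile scaling, no filter, at least 1 CPM in 4 libraries, DESeq2 1.42.0, limma-voom (limma 3.58.1), the replicate number as a block, a glial marker covariate and leaving out each library. Leaving out accumbens 2 and dorsal striatum 3 together was added after seeing the data.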

Additional observations from a re-analysis of the deposited data

How the results depend on the processing

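Of the 10 genes, 1 was called by edgeR, 2 were called without a filter on low counts, by DESeq2 and by limma-voom, the second being Ppp1r1b, and 0 with the glial marker covariate. Leaving out each library in turn gave 1 to 2. Over all genes, 464 were called, 795 by DESeq2 (403 lower and 392 higher in accumbens) and 150 with the covariate (92 and 58), where without a filter 350 were higher in accumbens against 200. Leaving out each library gave 324 to 411 in all, 184 to 236 lower and 139 to 191 higher. Of the pathway genes 4 were called, 0 with the covariate, 1 to 4 with each library left out and 2 without accumbens 2 and dorsal striatum 3 together, a setting chosen after seeing the data. The regions share 4 replicate numbers, and the labels do not say whether libraries of the same number came from the same mice. Correlations of same-numbered deviations ran from -0.081 to 0.014, and those of different numbers from -0.13 to 0.11. These values show no pairing by number, but they cannot settle whether the regions share animals. With the replicate number as a block, 2 of the 10 genes were called, Arpp19 and Ppp1r1b (-0.47, adjusted p = 0.0382), and 432 over all genes, while Akap9 was not called (adjusted p = 0.0605). Among 4 uncalled genes there were 11 changes of sign. Prkacb, which ran from -0.056 to 0.15 with each library left out, was -0.056 without accumbens 2, -0.019 without dorsal striatum 1, -0.047 without dorsal striatum 2 and -0.066 without accumbens 2 and dorsal striatum 3 together, where Prkar2b was -0.0023. Prkar1a, from -0.089 to 0.040 with each library left out, was 0.027 by limma-voom, 0.18 with the covariate, and 0.040, 0.028 and 0.040 without accumbens 1, dorsal striatum 3 and dorsal striatum 4. Arpp21 was 0.048 with the covariate. The cause of these changes was not tested.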

Other observations

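Among the genes whose pattern over the 8 libraries lay closest to that of Ppp1r1b by the root mean square difference of centred log2 CPM among 2123 genes averaging at least 100 CPM were Pcdh7 (0.10), Ckb (0.11), Rbfox3 (0.12) and Phyhip (0.12). Pcdh7 encodes a protocadherin, Ckb the brain creatine kinase and Rbfox3 the neuronal splicing factor known as NeuN. Ckb had 826, 651, 863 and 705 CPM in accumbens libraries 1 to 4, against 1441, 1169, 1133 and 839 CPM in dorsal libraries 1 to 4, and was called lower in accumbens (log2 fold change -0.59 ± 0.15 SE, edgeR adjusted p = 0.0304), although accumbens 3 lay above dorsal striatum 4. As in Ppp1r1b, dorsal striatum 1 was the highest library for each of these 4 genes. The other 3 were not called (edgeR adjusted p from 0.138 to 0.202). Nearness of pattern was used to choose them and is a description of these libraries.

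Markers of other cells were measured in the same captures. Drd2, the receptor gene of indirect-pathway neurons, had 72.5, 47.2, 48.2 and 56.1 CPM in accumbens libraries 1 to 4, against 32.4, 32.1, 15.9 and 22.9 CPM in dorsal libraries 1 to 4, and was called higher in accumbens (log2 fold change 1.11 ± 0.25 SE, edgeR adjusted p = 0.0167). The median log2 fold change was 1.29 over the 7 markers of that cell type, with Drd2, Adora2a, Penk and Grik3 called higher. Over the 10 markers of direct-pathway neurons it was -0.36, with Pdyn called higher and Ebf1 and Eya1 called lower. Medians were 0.69 for 7 tested astrocyte markers, of which Slc1a2 was called higher, and 0.46, 0.87 and 0.50 for 6 oligodendrocyte, 6 endothelial and 5 interneuron markers in turn. Of the microglia markers 1 was tested, at 3.09. The medians over these lists stand against 0.02 over all tested genes.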
